A study of Mus musculus with 17 samples.

Results

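The UDP-glucuronosyltransferases (UGT), glutathione S-transferases (GST) and sulfotransferases (SULT) of the mouse were followed across small intestine and libraries labelled liver. Members were chosen by gene symbol alone, as all Ugt1, Ugt2, Ugt3, Gst and Sult genes whose symbol has the family, letter and number form. The rule found 64 genes (21 UGT, 22 GST and 21 SULT), of which 55 stood among 33840 gene symbols of the intestinal files and 63 among 24594 gene identifiers of the liver-labelled files. Ugt1a8 stood only in the intestinal files, and 9 members stood only in the liver-labelled files (Sult2a1 to Sult2a6, Sult3a1, Sult3a2 and Ugt2a2).

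These enzymes carry out phase II metabolism, the step in which drugs, bilirubin, bile acids, steroids and plant compounds are joined to a polar group and become easier to excrete. UGTs transfer glucuronic acid from UDP-glucuronate, GSTs add glutathione to electrophiles, and SULTs transfer sulfate from the donor PAPS. Liver and small intestine are the main sites of these reactions, and the nuclear receptors PXR and CAR, the antioxidant factor NRF2 and the aryl hydrocarbon receptor AhR are known to control many of the genes.

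All 17 libraries were RNA-seq of total RNA, and all carry the genotype label WT. The intestinal set held hepatectomy crypts, sham crypts, hepatectomy IEC and sham IEC, with 2 libraries each; IEC is the labels' name for the other small intestinal preparation. The liver-labelled set has the treatment label DSS in every group, day 0 included, and held day 0, day 10 and day 20 with 3 libraries each. The sources used here give no age, sex, strain, extent of the hepatectomy or time after it. They do not say whether libraries of a group came from separate mice, so a p-value here reflects the spread among these libraries, which may be technical.

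Intestinal libraries held 26609786 to 43580050 counts and liver-labelled ones 12742629 to 42669857, the lowest being day 10 replicate 3. Levels are given in CPM, the count relative to a library size scaled by trimmed means (TMM), and levels of different genes were compared only as CPM per kb of exon. The label liver was checked against 12 hepatocyte markers, whose summed level ran from 155400 to 158000 CPM at day 20 but only from 1098 to 2628 CPM at day 0 and from 2220 to 3791 CPM at day 10. The 5 crypt stem cell markers summed to 7043 to 7882 CPM at day 0, 3091 to 5290 CPM at day 10 and 77.4 to 99.7 CPM at day 20. The libraries labelled liver at day 0 and day 10 therefore went against their label, and the day comparisons below compare libraries as labelled, in which tissue and day cannot be told apart; without these 6 libraries no day comparison remains.

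**Figure D1:**
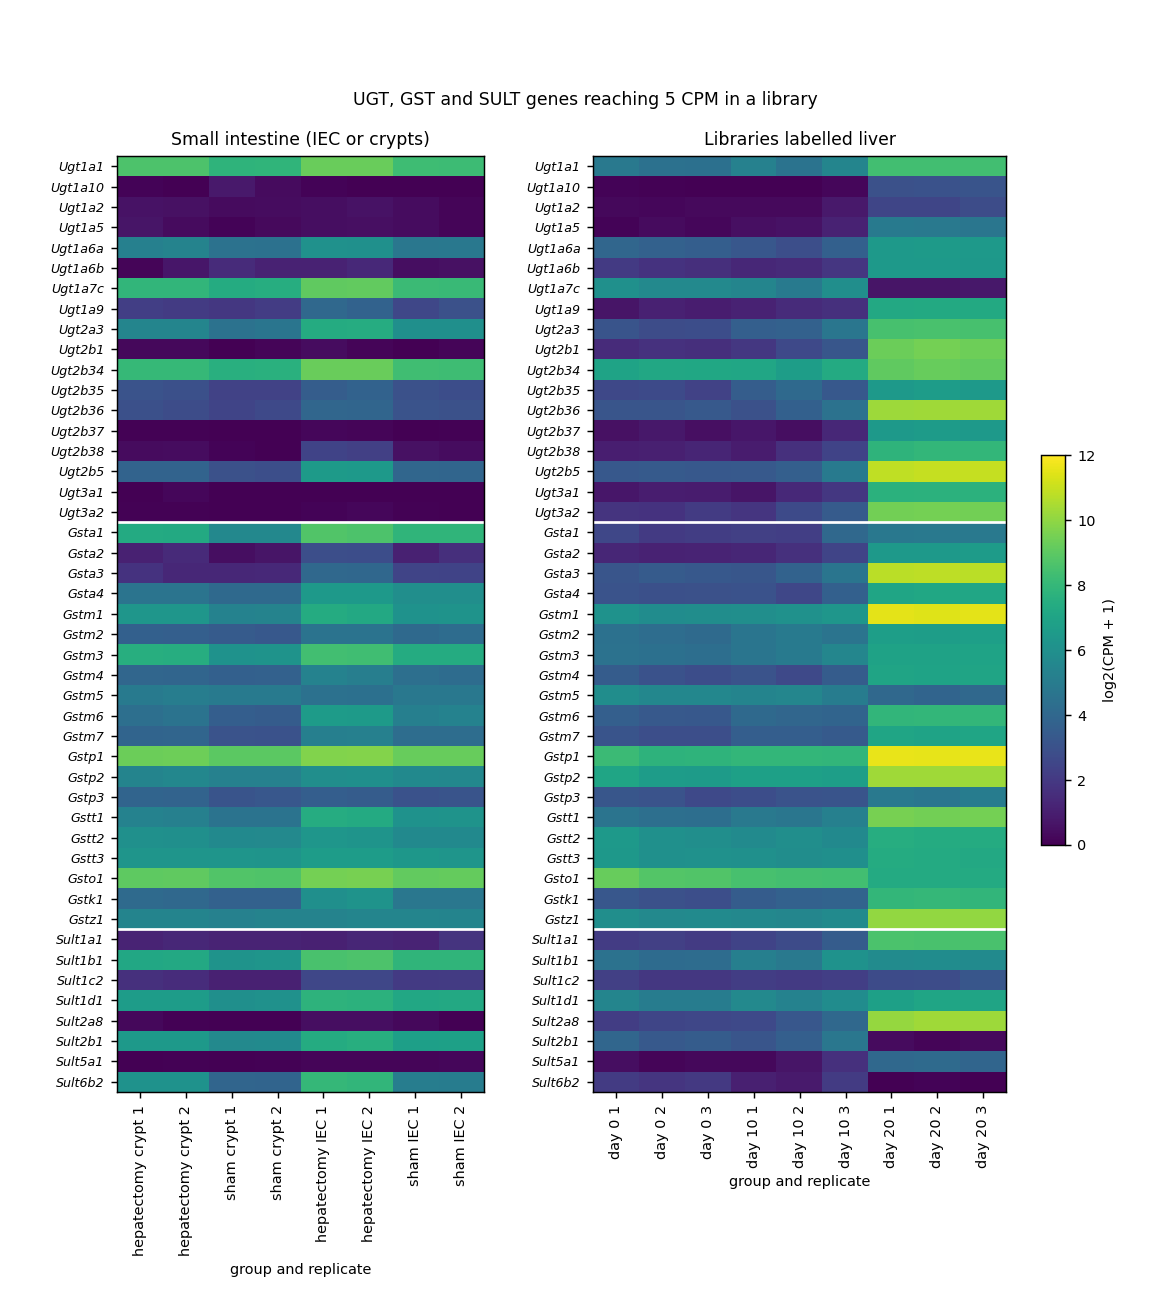
Level of each UGT, GST and SULT gene that reached 5 CPM in a library, as log2(CPM + 1), in 8 intestinal libraries (left) and 9 liver-labelled libraries (right); white lines part the superfamilies. Day 20 columns are brightest for most genes, whereas Ugt1a7c, Sult2b1 and Sult6b2 are dark there and bright in intestine.

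In small intestine the 3 superfamilies were led by the same few genes in every group. Gstp1, a pi class GST, had the highest GST level per length, with means of 786 CPM per kb in hepatectomy crypts, 619 in sham crypts, 1032 in hepatectomy IEC and 727 in sham IEC. Gsto1, an omega class enzyme that also reduces dehydroascorbate, and Gsta1, an alpha class enzyme, followed in that order in all 4 groups. Among UGTs the order was Ugt1a1, the bilirubin-conjugating enzyme, then Ugt2b34 and Ugt1a7c. Ugt1a1 averaged 179 CPM per kb in hepatectomy crypts, 102 in sham crypts, 272 in hepatectomy IEC and 136 in sham IEC. The SULT leaders were Sult1b1, known for sulfating thyroid hormones and small phenols, followed by Sult1d1 and Sult2b1 in both sham groups. Sult6b2 was the exception in rank, since it was among the top 3 SULTs only in the hepatectomy groups and was first in hepatectomy IEC at 166 CPM per kb.

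Hepatectomy came with higher phase II expression in crypts. Of 42 members tested, 30 rose and 3 fell with edgeR's quasi-likelihood test at a Benjamini-Hochberg adjusted p under 0.05, against 37.5% of all 18207 genes called in either direction and 19.2% called higher. In bulk RNA, fewer cells of a type and less RNA per cell cannot be told apart, here and in every comparison below. The median log2 fold change of the tested members was 0.64, beside 0.01 over all genes tested. By superfamily, 9 of 15 UGTs, 16 of 20 GSTs and 5 of 7 SULTs rose. Under scaling by total counts alone, which moved the median of all genes to -0.31, the split was 21 higher and 6 lower. Of all 18207 genes, 1560 were then called higher and 8252 lower. Gstm2, Gstm4, Gstp2 and Gstt2 no longer lay above 0 under this scaling.

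Among members whose higher group averaged 5 CPM or more, the largest log2 fold changes in crypts were those of Sult6b2 and Gsta1. Sult6b2 (chromosome 6, mm10, 142785204 to 142804503, minus strand), a sulfotransferase, had 67.8 and 68.9 CPM in hepatectomy crypts, against 14.2 and 13.5 CPM in sham crypts. The groups were far apart, with a log2 fold change of 2.30 ± 0.06 (SE, adjusted p = 2.5e-10). Gsta1 (chromosome 9, mm10, 78230656 to 78242685, plus strand) had 159 and 155 CPM in hepatectomy crypts, against 46.96 and 47.41 CPM in sham crypts, and again no library of one group reached the other (log2 fold change 1.73 ± 0.05, adjusted p = 2.5e-10). Gsta1 is nearly identical to Gsta2 and the predicted genes Gm3776 and Gm10639, and the sum of these gave 1.78 ± 0.05 with an adjusted p of 2.4e-10. Gstm3, a mu class GST, had 183 and 180 CPM in hepatectomy crypts and 69.2 and 70.2 CPM in sham crypts (log2 fold change 1.38 ± 0.05, adjusted p = 1.0e-09).

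The other members among the 10 with the smallest adjusted p in crypts came from all 3 superfamilies. Sult1b1 had 145 and 148 CPM in hepatectomy crypts and 70.5 and 75.6 CPM in sham crypts, a log2 fold change of 1.00 ± 0.05. Ugt1a1 had 396 and 402 CPM in hepatectomy crypts and 226 and 228 CPM in sham crypts, a log2 fold change of 0.81 ± 0.04. Gstm1, another mu class GST, had 79.0 and 77.1 CPM in hepatectomy crypts and 39.0 and 40.4 CPM in sham crypts. In these 3 genes the lowest hepatectomy library stood above the highest sham library. Sult2b1, the cholesterol sulfotransferase, had 85.9 and 87.1 CPM in hepatectomy crypts and 49.98 and 51.84 CPM in sham crypts. Ugt2a3 had 43.3 and 43.2 CPM in hepatectomy crypts and 22.1 and 24.5 CPM in sham crypts. Sult1d1, a catecholamine and phenol sulfotransferase in rodents, had 99.2 and 98.8 CPM in hepatectomy crypts and 61.6 and 65.3 CPM in sham crypts. Ugt1a6a, which acts on planar phenols, had 37.0 and 39.8 CPM in hepatectomy crypts and 22.1 and 21.5 CPM in sham crypts. Log2 fold changes of the last 5, Gstm1 included, lay between 0.64 and 0.98, with adjusted p from 2.1e-07 to 1.3e-06.

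The 3 members that fell in crypts were Ugt1a6b, Ugt1a8 and Ugt1a10, all at low counts. Ugt1a8 had 6 and 6 counts in hepatectomy crypts and 31 and 68 in sham crypts. Ugt1a6b had 4 and 27 counts in hepatectomy crypts and 60 and 57 in sham crypts, and Ugt1a10 had 3 and 0 counts in hepatectomy crypts and 26 and 13 in sham crypts. All Ugt1a genes share their last exons, so reads from those exons can be split between them by the counting. With the Ugt1a genes summed as 1 locus, an alternative chosen after seeing the data, the locus rose in crypts by a log2 fold change of 0.67 ± 0.04 (adjusted p = 7.7e-08). With near-identical genes summed in this way, 25 of 31 units rose in crypts and 0 fell. DESeq2 on the separate genes had 28 members higher and 2 lower, beside 2898 higher and 2176 lower of all 18207 genes. Gstm1 and its near copy Gstm2-ps1 were not summed.

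In IEC the rise was broader. There 35 of 42 tested members rose and 1 fell, beside 37.8% of all genes called in either direction and 19.5% called higher. The median log2 fold change was 0.96 for members and 0.02 for all genes tested. All 12 called UGTs of 15, 18 of 20 GSTs and 5 of 7 SULTs rose, and the exception was Gstm5, with 20.9 and 20.9 CPM in hepatectomy IEC and 27.0 and 26.9 CPM in sham IEC (log2 fold change -0.37 ± 0.08, adjusted p = 0.0022). Gstm5, Gstt3, Sult1a1, Sult2b1, Sult6b1 and the gene for the zeta class enzyme of tyrosine breakdown, Gstz1, overlap other annotated genes. Of these, Gstt3 had the largest overlap, at 27.8% of its exon bases.

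Among members with at least 5 CPM, Sult6b2 again had the largest log2 fold change, with 255 and 235 CPM in hepatectomy IEC and 33.1 and 31.5 CPM in sham IEC (log2 fold change 2.92 ± 0.06, adjusted p = 4.0e-11). Ugt2b5 (chromosome 5, mm10, 87124960 to 87140319, minus strand), a UGT2B enzyme of steroid and drug glucuronidation, had 93.4 and 87.1 CPM in hepatectomy IEC and 14.5 and 14.2 CPM in sham IEC (log2 fold change 2.65 ± 0.07, adjusted p = 9.9e-11). Hepatectomy and sham libraries did not overlap in either gene. Ugt2b5 is 95.5% identical to Ugt2b38, and their sum gave 2.68 ± 0.07. Ugt2a3 had 164 and 173 CPM in hepatectomy IEC and 61.8 and 61.3 CPM in sham IEC, and Gstt1, the theta class enzyme that acts on small halogenated compounds, had 172 and 163 CPM in hepatectomy IEC and 68.1 and 70.0 CPM in sham IEC. Their log2 fold changes were 1.45 ± 0.06 and 1.27 ± 0.06.

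The most abundant UGTs approximately followed the median member in IEC. Ugt1a1 had 610 and 602 CPM in hepatectomy IEC and 308 and 299 CPM in sham IEC. Ugt2b34 had 615 and 610 CPM in hepatectomy IEC and 316 and 312 CPM in sham IEC, and Ugt1a7c, an enzyme of the Ugt1 locus typical of gut, had 532 and 549 CPM in hepatectomy IEC and 284 and 280 CPM in sham IEC. Log2 fold changes of these 3 lay between 0.94 and 1.00, with adjusted p from 2.5e-09 to 8.8e-09. Ugt1a6a had 66.2 and 63.8 CPM in hepatectomy IEC and 26.2 and 27.2 CPM in sham IEC, Gstm1 had 166 and 148 CPM in hepatectomy IEC and 69.1 and 69.8 CPM in sham IEC, and Gstm3 had 333 and 315 CPM in hepatectomy IEC and 166 and 166 CPM in sham IEC. In all 6 genes every hepatectomy IEC library lay above both sham IEC libraries. The genes shown by library were mostly chosen for a small adjusted p, so such separation, here and elsewhere, is no further support.

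**Figure D2:**
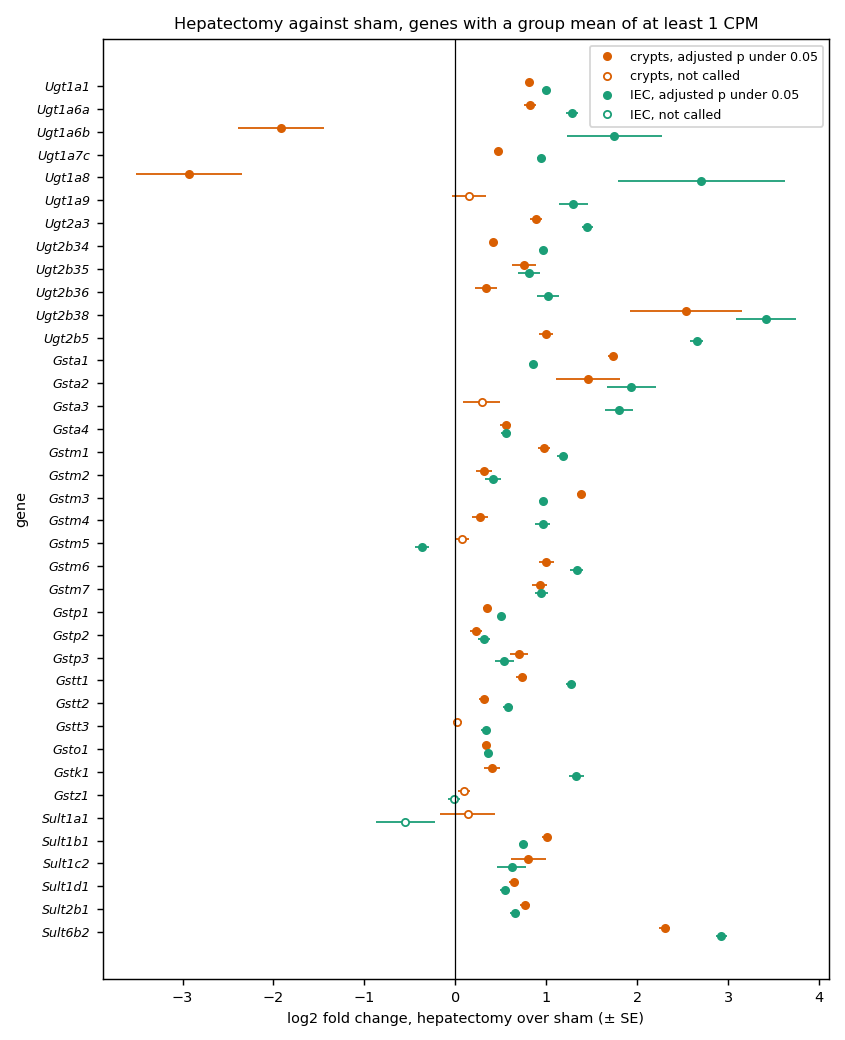
Log2 fold change (± SE) of hepatectomy over sham in crypts (orange) and IEC (green) for members with a group mean of at least 1 CPM; filled points have an adjusted p under 0.05. Nearly all points lie right of 0, Sult6b2, Ugt2b5 and Ugt2b38 lie far right in IEC, and Ugt1a6b and Ugt1a8 have wide errors.

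The crypt and IEC comparisons share no library, and 30 members were called higher in both. Gsta3, Gstt3 (not called in IEC under total-count scaling), Ugt1a6b, Ugt1a8 and Ugt1a9 were called higher in IEC but not in crypts, and no member was called higher in crypts but not in IEC. The difference of the effects, crypts minus IEC, was tested directly and was called in 21 of 42 members, 4 with a larger and 17 with a smaller log2 fold change in crypts, beside 19.2% of all genes called, 9.15% with a larger and 10.1% with a smaller log2 fold change in crypts. UGTs made up 10 of the 17, and 6 of these 10 were Ugt1a genes, which share their last exons. With near-identical genes summed, 4 of 31 units had a larger and 12 a smaller log2 fold change in crypts. Ugt2b5 differed by -1.66 ± 0.11 (adjusted p = 1.1e-06), and Gsta3, an alpha class enzyme with 2.41 and 1.56 CPM in hepatectomy crypts and 15.65 and 14.95 CPM in hepatectomy IEC, by -1.51 ± 0.26. Gstk1, the kappa class enzyme of mitochondria and peroxisomes, differed by -0.93 ± 0.12: it had 61.0 and 71.3 CPM in hepatectomy IEC and 26.4 and 26.1 CPM in sham IEC. Gsta1 went the other way, with a difference of 0.88 ± 0.07, as did Gstm3 with 0.42 ± 0.07. Sult1b1 differed by 0.26 ± 0.07, a call lost in 6 of 14 alternatives.

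**Figure D3:**
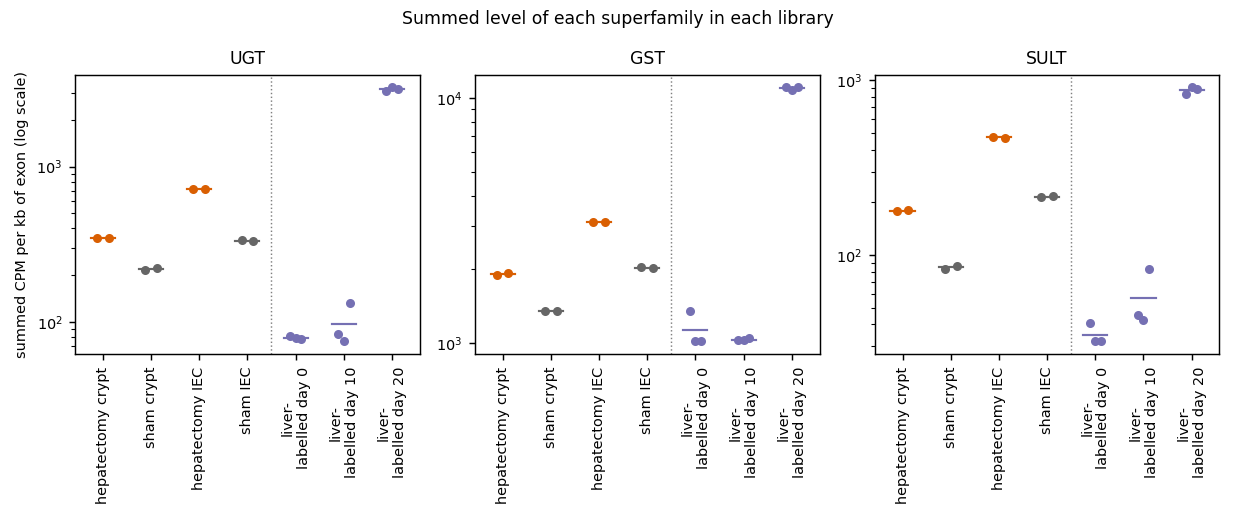
Summed level of UGT, GST and SULT genes in each library, in CPM per kb of exon on a log axis; points are libraries and lines are group means. Hepatectomy libraries lie above sham libraries in crypts and in IEC for all 3 superfamilies, and day 20 libraries are the highest.

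Summed over members, each superfamily was higher in the hepatectomy libraries than in the sham libraries of its fraction. UGTs summed to 347 ± 2 CPM per kb in hepatectomy crypts and 218 ± 4 in sham crypts, and to 719 ± 1 in hepatectomy IEC and 333 ± 4 in sham IEC (SD, n = 2 each). GSTs summed to 1918 ± 32 in hepatectomy crypts and 1354 ± 5 in sham crypts, and to 3126 ± 7 in hepatectomy IEC and 2034 ± 10 in sham IEC. SULTs summed to 179 ± 2 in hepatectomy crypts and 85.1 ± 2.6 in sham crypts, and to 472 ± 3 in hepatectomy IEC and 216 ± 2 in sham IEC. In each of these pairs both hepatectomy libraries exceeded both sham libraries.

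Markers of mature absorptive cells moved in the same direction as these enzymes. All 10 small intestinal enterocyte markers rose with hepatectomy in crypts and in IEC, and their summed level ran from 9131 to 9396 CPM in hepatectomy crypts against 3650 to 3701 CPM in sham crypts, and from 50030 to 51800 CPM in hepatectomy IEC against 19890 to 20160 CPM in sham IEC. The 5 stem cell markers summed to 1066 to 1090 CPM in hepatectomy crypts and 1837 to 1880 CPM in sham crypts, with 3 of 5 called lower, and to 761 to 778 CPM in hepatectomy IEC and 1577 to 1581 CPM in sham IEC, again with 3 called lower. All 6 goblet cell markers fell in crypts (summed 2412 to 2471 CPM in hepatectomy crypts and 5593 to 5629 CPM in sham crypts), as did all 5 Paneth cell markers (summed 348 to 349 CPM in hepatectomy crypts and 868 to 950 CPM in sham crypts). In IEC 3 goblet markers rose and 2 fell (summed 8231 to 8475 CPM in hepatectomy IEC and 6722 to 6989 CPM in sham IEC), and 1 Paneth marker rose and 4 fell (summed 1281 to 1305 CPM in hepatectomy IEC and 1973 to 2077 CPM in sham IEC). All 4 B and plasma cell markers fell in both fractions, and their sum ran from 13.0 to 14.8 CPM in hepatectomy crypts against 59.1 to 63.7 CPM in sham crypts, and from 85.6 to 90.6 CPM in hepatectomy IEC against 326 to 336 CPM in sham IEC. Of 5 T and NK cell markers 5 fell in crypts and 3 in IEC. The part of these markers in the enzyme results was not tested. Alb, the albumin gene of hepatocytes, stood at 0.0746 to 0.242 CPM in all 8 intestinal libraries.

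Crypts had less of most conjugating enzymes than IEC. After sham surgery 30 of 42 members were lower and 3 higher in crypts, beside 38.6% of all genes called in either direction and 19.3% called lower, with a median log2 difference of -0.77 for members and 0.02 for all genes. After hepatectomy 33 were lower and 2 higher, Gstm5 and Gstp3 (Gstp3 was not called by DESeq2 or without hepatectomy IEC replicate 2), beside 51.9% called and 25.6% called lower. Both comparisons use libraries of the hepatectomy comparisons. The 3 higher after sham were again Ugt1a6b, Ugt1a8 and Ugt1a10, and with near-identical genes summed 0 of 31 units were higher and 24 lower. Under total-count scaling, which moved the median of all genes to 0.37, the sham split was 8 higher and 23 lower. Of all 18207 genes, 8597 were then called higher and 1742 lower. Gstp1 and Ugt1a6a lay on the other side of 0 under this scaling.

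Cell markers also differed between the fractions. All 10 enterocyte markers were lower in crypts after sham and after hepatectomy. After sham, 4 of 5 Paneth markers were lower in crypts and 0 higher (summed 868 to 950 CPM in sham crypts and 1973 to 2077 CPM in sham IEC), 5 of 6 goblet markers were lower and 1 higher, and of 5 stem cell markers 2 were higher and 2 lower. After hepatectomy, all 5 Paneth and all 6 goblet markers were lower in crypts, and of the stem cell markers 3 were higher and 1 lower. The part of these markers in the enzyme gradient was not tested.

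After sham the steepest gradients among members with at least 5 CPM were in alpha class GSTs. Gsta1 had 46.96 and 47.41 CPM in sham crypts and 231 and 227 CPM in sham IEC (log2 difference -2.28 ± 0.05, adjusted p = 5.0e-12). Gsta4, which detoxifies the lipid peroxidation product hydroxynonenal, had 16.2 and 15.9 CPM in sham crypts and 59.3 and 59.3 CPM in sham IEC (log2 difference -1.88 ± 0.06, adjusted p = 1.1e-10). The fractions were clearly apart in both genes. Gstm6, Gstm3 and Gstt1 differed by -1.79, -1.25 and -1.61, Sult1b1, Sult1d1, Sult2b1 and Sult6b2 by -1.65, -1.22, -1.11 and -1.22, and Ugt2a3 by -1.40, with adjusted p from 8.5e-11 to 2.1e-08. Gstt2 and Gstt3 were not called after sham, with log2 differences of 0.00 ± 0.06 and -0.06 ± 0.05.

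After hepatectomy the gradient was steepest in Ugt2b5 among the 10 members with the smallest adjusted p. It had 13.1 and 13.2 CPM in hepatectomy crypts and 93.4 and 87.1 CPM in hepatectomy IEC, a log2 difference of -2.78 ± 0.07 (adjusted p = 9.0e-12), beside -1.12 ± 0.08 after sham. Gsta3, outside these 10, was also called lower in crypts, with log2 differences from -3.28 to -2.66 in 15 alternatives. Gstt1, Gstm6, Ugt2a3, Gsta4 and Sult6b2 differed by -2.15, -2.13, -1.96, -1.89 and -1.84, and Gsta1, Sult1b1, Ugt2b34 and Ugt1a7c by -1.40, -1.40, -1.24 and -1.20.

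The genes that feed or follow conjugation were read from lists. Counts for these lists, and for the targets and regulators below, stand beside 37.5% of all genes called in crypts and 37.8% in IEC. Of 6 genes for UDP-glucuronate supply, 4 rose and 1 fell in crypts, and 6 rose in IEC. Ugdh, which makes UDP-glucuronate, averaged 202 ± 1 CPM in hepatectomy crypts and 138 ± 4 CPM in sham crypts, and 490 ± 21 CPM in hepatectomy IEC and 221 ± 4 CPM in sham IEC (SD, n = 2 each). Of 9 genes for sulfate and PAPS supply, 4 rose and 3 fell in crypts, and 4 rose and 1 fell in IEC. Papss2, which makes PAPS, averaged 406 ± 11 CPM in hepatectomy crypts and 111 ± 1 CPM in sham crypts (log2 fold change 1.87 ± 0.04), and 1156 ± 47 CPM in hepatectomy IEC and 489 ± 2 CPM in sham IEC (1.24 ± 0.04). Slc13a1, a sulfate transporter, rose by 0.79 and 1.70 on the log2 scale in crypts and IEC, whereas Papss1 fell by 0.26 in both.

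Of 13 glutathione supply genes, 4 rose and 1 fell in crypts, a share near that of all genes, and 7 rose and 3 fell in IEC. Ggt1, which cleaves glutathione outside the cell, rose by 1.42 and 1.71 on the log2 scale, and the synthesis enzymes Gclc and Gclm had log2 fold changes of 0.35 and -0.01 in crypts, not called, and of 0.51 and 0.69 in IEC, both called. The difference of the effects was not called for Gclc (-0.16 ± 0.22) or Gclm (-0.70 ± 0.23). Of 8 conjugate efflux pumps tested, 3 rose and 2 fell in crypts, and 5 rose and 1 fell in IEC. Abcc2, the apical pump for glucuronides and glutathione conjugates, averaged 45.36 ± 0.07 CPM in hepatectomy crypts and 12.04 ± 0.13 CPM in sham crypts, and 148 ± 3 CPM in hepatectomy IEC and 45.7 ± 0.9 CPM in sham IEC. Abcc1, a basolateral pump, fell by 0.57 in crypts and 0.88 in IEC on the log2 scale.

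Deconjugating enzymes had 5 rises and 2 falls in crypts and 5 rises and 0 falls in IEC among 8 tested (edgeR). Dpep1 and Anpep, peptidases that trim glutathione conjugates, rose in both fractions, and Anpep is also on the enterocyte list. Of 15 other phase II enzymes tested, 8 rose and 1 fell in crypts, and 9 rose and 2 fell in IEC, led by Nat8, which acetylates cysteine conjugates (1.69 ± 0.06 and 2.10 ± 0.05 on the log2 scale).

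Targets of PXR and CAR moved together. Of 11 listed genes 10 rose in crypts and 11 in IEC, with median log2 fold changes of 1.51 and 1.69, and all 11 were lower in crypts than in IEC after sham. Cyp3a11, the main PXR-responsive P450, averaged 21.9 ± 1.4 CPM in hepatectomy crypts and 5.94 ± 0.01 CPM in sham crypts, and 514 ± 30 CPM in hepatectomy IEC and 99.4 ± 0.6 CPM in sham IEC. Cyp2b10, the classic CAR target, averaged 55.9 ± 1.4 CPM in hepatectomy crypts and 13.9 ± 1.4 CPM in sham crypts, and 618 ± 40 CPM in hepatectomy IEC and 154 ± 2 CPM in sham IEC. This list shares Abcc2 and Abcb1a with the efflux pumps. All 10 enterocyte markers likewise rose in both fractions and were lower in crypts after sham. The part of PXR and CAR in these changes was not tested. NRF2 targets had 6 rises and 1 fall of 15 in crypts and 10 rises and 1 fall in IEC, and of 4 AhR targets tested 1 rose and 1 fell in each fraction: Nqo1 rose, and Cyp1a1, the most AhR-dependent of them, fell by 1.26 and 0.83 on the log2 scale.

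Among 20 regulators, 10 rose and 2 fell in crypts and likewise in IEC. Nr1i3, which encodes CAR, averaged 39.6 ± 2.9 CPM in hepatectomy crypts and 18.0 ± 1.2 CPM in sham crypts, and 105 ± 5 CPM in hepatectomy IEC and 34.7 ± 0.4 CPM in sham IEC. Nr1i2, which encodes PXR, rose by 0.30 and 0.46 on the log2 scale. The clock output factors Dbp and Tef rose by 4.46 and 3.56 in crypts and 5.22 and 2.58 in IEC; no source used here gives the time of day of collection. Hnf4a, a nuclear receptor of liver and gut epithelium, was at 0.00 ± 0.04 in crypts, not called, and fell by 0.30 in IEC. The part of these regulators in the enzyme results was not tested.

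Promoter windows of 250 bases before to 50 after the start site, from RefSeq on GRCm38.p6, were at hand for 56 members in 67 windows. The D-box TTATGNAA of Dbp and Tef, searched like all others on both strands, stood in 5.97% of member windows (4 of 67) and 3.38% of all, in Ugt1a9, Ugt1a10, Ugt2b1 and Gstt1. Of these, Gstt1 rose in both fractions and Ugt1a9 only in IEC, Ugt1a10 fell in crypts, and Ugt2b1 was below the filter in intestine. The part of the motif in these changes was not tested. The antioxidant element TGACNNNGC stood in 4.48% and 12.4%, the xenobiotic element GCGTG in 19.4% and 32.4%, the E-box CACGTG in 0 windows and 7.15%, and the DR1 repeat of nuclear receptors in 0 windows and 0.0396%.

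Shown here are the promoters of Ugt1a9 and Ugt1a7c, whose genes part company between intestine and the day 20 libraries, and those of Ugt2b1 and Gstt1, which hold the D-box. Letters in capitals are matches to any of the 5 motifs, and sequences run 5′ to 3′ on the strand of the gene.
Ugt1a9 (chr1:88070529-88070828, + strand): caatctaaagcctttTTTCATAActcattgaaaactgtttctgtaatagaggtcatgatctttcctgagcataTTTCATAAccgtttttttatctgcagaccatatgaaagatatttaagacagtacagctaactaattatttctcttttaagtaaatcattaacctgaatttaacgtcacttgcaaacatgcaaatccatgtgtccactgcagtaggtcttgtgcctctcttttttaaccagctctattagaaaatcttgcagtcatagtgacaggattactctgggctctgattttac
Ugt1a7c (chr1:88094751-88095050, + strand): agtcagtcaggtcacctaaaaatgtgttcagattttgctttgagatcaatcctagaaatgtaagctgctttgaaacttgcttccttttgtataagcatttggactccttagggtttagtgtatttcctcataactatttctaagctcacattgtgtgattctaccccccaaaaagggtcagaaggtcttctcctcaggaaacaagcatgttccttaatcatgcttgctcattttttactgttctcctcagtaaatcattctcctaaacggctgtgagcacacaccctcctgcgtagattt
Ugt2b1 (chr5:86926454-86926753, - strand): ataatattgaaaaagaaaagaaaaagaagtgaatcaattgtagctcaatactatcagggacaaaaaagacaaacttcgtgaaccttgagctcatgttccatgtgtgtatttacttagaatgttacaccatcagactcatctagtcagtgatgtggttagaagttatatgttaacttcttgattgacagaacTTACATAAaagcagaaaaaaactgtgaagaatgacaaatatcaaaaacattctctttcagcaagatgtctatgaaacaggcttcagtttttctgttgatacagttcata
Gstt1 (chr10:75797682-75797981, - strand): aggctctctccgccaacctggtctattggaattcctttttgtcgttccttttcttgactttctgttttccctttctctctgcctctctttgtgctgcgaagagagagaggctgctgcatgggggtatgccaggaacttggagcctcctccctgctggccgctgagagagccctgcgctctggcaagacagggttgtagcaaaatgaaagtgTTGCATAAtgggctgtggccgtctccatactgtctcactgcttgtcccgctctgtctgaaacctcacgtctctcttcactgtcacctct
Counted from the start site, the D-box match begins at -59 in Ugt2b1 and at -39 in Gstt1, and Ugt1a9 holds 2 D-box matches further upstream. The window of Ugt1a7c holds none of the 5 motifs. A match is a string of letters, not a measured site.

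The Ugt1 locus on chromosome 1 (mm10, 88055388 to 88220003, 9 members, plus strand) joins alternative first exons to shared last exons, so each gene has its own promoter. Of the locus total in CPM, Ugt1a1 held 58.8% in hepatectomy crypts, 53.2% in sham crypts, 49.3% in hepatectomy IEC and 49.0% in sham IEC. Ugt1a7c held 34.8% in hepatectomy crypts, 40.1% in sham crypts, 44.0% in hepatectomy IEC and 45.6% in sham IEC. In the liver-labelled libraries Ugt1a7c held 57.6% at day 0, 47.2% at day 10 and 0.0902% at day 20. Ugt1a9 held 0.994% at day 0, 1.96% at day 10 and 22.3% at day 20, and Ugt1a6b held 2.69%, 2.20% and 12.1% at the same days. Since the last exons are shared, these shares depend on how the counting assigned reads.

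A cluster on chromosome 5 (mm10, 86889767 to 87591595) holds 10 Ugt2 genes and 3 Sult1 genes side by side. The genes tested there in intestine (Ugt2b34, Ugt2b35, Ugt2b36, Ugt2b5, Ugt2a3, Ugt2b38, Sult1b1 and Sult1d1) all rose with hepatectomy in both fractions, by log2 fold changes from 0.34 in Ugt2b36 to 2.54 in Ugt2b38 in crypts and from 0.54 in Sult1d1 to 3.42 in Ugt2b38 in IEC. Ugt2b38 had 10 and 14 counts in hepatectomy crypts and 3 and 1 in sham crypts. The crypt call of Ugt2b36 was lost in 11 of 15 alternatives, including DESeq2, total-count scaling and each fit without 1 library other than replicate 2 of hepatectomy crypts or of sham crypts, with log2 fold changes down to 0.02, and that of Ugt2b34 under total-count scaling. Their neighbours Ugt2b1, Ugt2b37, Ugt2a1 and Sult1e1 were below the filter in intestine, with at most 10 counts in a library. Sult1e1, the estrogen sulfotransferase, had at most 1 count.

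**Figure D4:**
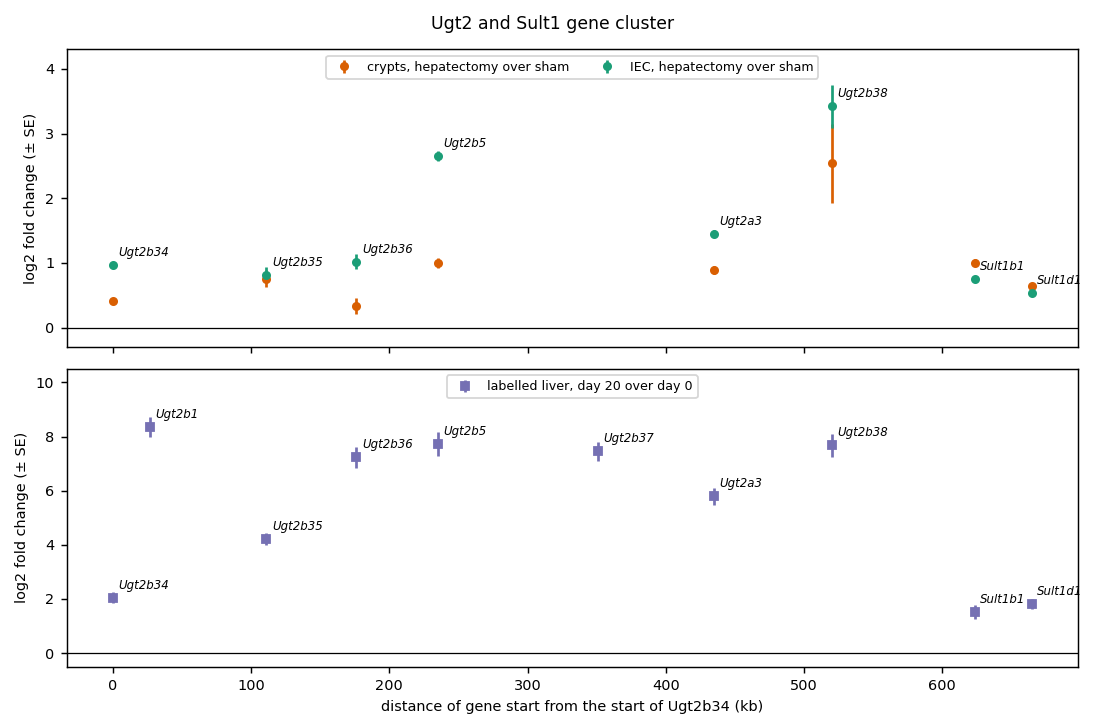
Log2 fold change (± SE) of the genes of the Ugt2 and Sult1 cluster against the distance of the gene start from that of Ugt2b34 in kb, for hepatectomy over sham in crypts and IEC (top) and for day 20 over day 0 (bottom). Ugt2b5 and Ugt2b38 stand above their neighbours in IEC, and Ugt2b34, Sult1b1 and Sult1d1 change least at day 20.

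In the liver-labelled libraries most members were far higher at day 20. Against day 0, 42 of 50 tested members were higher and 6 lower, beside 71.4% of all 16694 genes called in either direction, 33.3% called higher and 38.1% called lower, with a median log2 fold change of 4.27 for members and -0.16 for all genes. Against day 10, 41 were higher and 7 lower, beside 71.1% called, 30.8% higher and 40.3% lower; both comparisons use the day 20 libraries. UGTs summed to 79.0 ± 2.1 CPM per kb at day 0, 97.0 ± 31.0 at day 10 and 3167 ± 97 at day 20 (SD, n = 3 each). GSTs summed to 1133 ± 195, 1037 ± 9 and 10940 ± 168, and SULTs to 35.02 ± 5.09, 57.0 ± 22.8 and 876 ± 40 CPM per kb at the same days. Day 20 libraries did not overlap with the others in any of the 3 sums.

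Most leaders at day 20 differed from those of intestine, but Gstp1 and Sult1d1 were among the leaders of both. Gstp1 again led the GSTs, at 3741 CPM per kb, followed by Gstm1 and Gstp2. Gstp2 held 14.3% of the GST sum at day 20, but also 11.9% at day 0 and 13.2% at day 10. In the intestinal groups it held 2.47% to 3.52%. Gstp1 and Gstp2 are 98.7% identical, and intestinal and liver-labelled libraries were counted in different ways. The Gstp2 share may therefore depend on how the counting assigned reads. The UGT leaders were Ugt2b5 (1031 CPM per kb), Ugt2b36 and Ugt3a2, a UGT3 enzyme whose human counterpart uses other sugars than glucuronate, and the SULT leaders were Sult2a8, Sult1a1 and Sult1d1. Gstm1 had 68.5, 56.7 and 58.4 CPM at day 0, 60.1, 66.3 and 77.1 at day 10 and 2914, 2766 and 2945 at day 20, a log2 fold change of 5.55 ± 0.23 over day 0 (adjusted p = 2.6e-10). Ugt1a9 had 0.611, 1.15 and 0.924 CPM at day 0, 1.21, 1.75 and 2.17 at day 10 and 153, 158 and 158 at day 20 (7.43 ± 0.26, adjusted p = 1.0e-10). In both genes the day 20 libraries stood far above all day 0 and day 10 libraries.

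Class by class the day 20 rise was wide. Gstk1, Gstt1, Gstz1, Gstm6 and Gstm7 had log2 fold changes of 5.07, 5.12, 4.29, 4.63 and 4.25 over day 0, with adjusted p from 1.1e-10 to 3.0e-10. Sult1a1, the main phenol sulfotransferase of liver, had 3.37, 3.87 and 3.26 CPM at day 0, 4.296, 5.74 and 10.3 at day 10 and 382, 381 and 379 at day 20 (log2 fold change 6.76 ± 0.30). Ugt2b1, a UGT2B enzyme of liver, had 1.81, 2.33 and 2.05 CPM at day 0, 2.87, 5.25 and 8.14 at day 10 and 638, 723 and 661 at day 20 (8.35 ± 0.36). Its day 10 libraries all lay above day 0. Ugt1a6b rose by 5.06 ± 0.23, and the whole Ugt1a locus by 2.90 ± 0.23.

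The 6 members lower at day 20 than at day 0 were Ugt1a7c, Sult6b2, Sult2b1, Gsto1, Gstm5 and Sult4a1. Sult6b1 was also lower against day 10. Sult4a1 and Sult6b1 were near the floor, with at most 20 and 13 counts in a liver-labelled library. Ugt1a7c had 63.1, 49.9 and 48.6 CPM at day 0, 42.7, 29.4 and 59.0 at day 10 and 0.588, 0.618 and 0.684 at day 20 (log2 fold change -6.41 ± 0.30, adjusted p = 6.4e-10). Sult2b1 had 14.7, 9.22 and 10.1 CPM at day 0, 7.84, 11.2 and 26.0 at day 10 and 0.294, 0.116 and 0.216 at day 20. Sult6b2 had 3.23, 2.63 and 2.98 CPM at day 0, 1.09, 0.814 and 3.23 at day 10, and at day 20 was at 0 in 2 libraries and at 0.0773 CPM in replicate 2. Gsto1 had 599, 436 and 433 CPM at day 0, 366, 335 and 330 at day 10 and 161, 163 and 161 at day 20.

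Below the filter in the liver-labelled files were 13 members, among them Sult2a1 to Sult2a6, Sult3a1 and Sult3a2, several of which are known as female-predominant in mouse liver. The highest of these 8 was Sult2a6, with at most 31 counts in a library, and Ugt2a2 had 0 counts in all 9 libraries. In intestine 13 of 55 members were below the filter, with at most 12 counts in a library.

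Day 10 against day 0 moved fewer members. Of 50 tested, 19 were higher and 1 lower (Gsto1), beside 43.6% of all genes called in either direction and 24.7% called higher, with a median log2 fold change of 0.62 for members and 0.10 for all genes. Ugt2b35 had 10.4, 16.3 and 8.77 CPM at day 10 and 5.06, 5.48 and 4.18 CPM at day 0 (log2 fold change 1.27 ± 0.21, adjusted p = 0.0020). Ugt2a3 had 11.4, 12.1 and 25.6 CPM at day 10 and 7.73, 6.02 and 6.24 CPM at day 0 (1.29 ± 0.27, adjusted p = 0.0047). In both genes the day 10 libraries lay above those of day 0. Sult1b1 had 35.2, 27.8 and 67.5 CPM at day 10 and 21.9, 17.4 and 17.8 CPM at day 0 (1.19 ± 0.26, adjusted p = 0.0058). Gstm7, Gstk1, Gstm6, Sult1a1, Sult2a8 and Gstm3 rose by 0.60 to 1.16 on the log2 scale, with adjusted p from 0.0060 to 0.018.

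This count moved with single libraries. It was 17 of 50, with 12 higher and 5 lower, without day 10 replicate 3, beside 6823 of 16745 genes. Without day 0 replicate 2 it was 10 of 51, beside 5783 of 17782 genes. Without day 0 replicate 3 it was 11 of 51, beside 6352 of 18145 genes. In each of these fits the share of members was no higher than that of all genes. Of the 15 called members with at least 5 CPM, 4 kept their call in all 16 alternatives of scaling, model, filter, block, groups in the fit and libraries left out: Ugt2b35, Ugt2a3, Ugt2b1 and Sult1b1.

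A set of 5 members, chosen after their values were seen, was nearly silent in intestine and high at day 20. Sult2a8, Ugt2b1, Ugt2b37, Ugt3a1 and Ugt3a2 averaged under 0.5 CPM in every intestinal group and at least 50 CPM at day 20. As a share of their day 20 mean they stood at 0.268% to 0.765% in day 0 libraries, at 0.291% to 0.783% in day 10 replicates 1 and 2 and at 1.21% to 1.64% in day 10 replicate 3. The 12 hepatocyte markers had medians of 0.491%, 0.650% and 0.603% in the day 0 libraries and 0.640%, 0.921% and 1.77% in the day 10 libraries. The order of the libraries was similar in both sets, with day 10 replicate 3 the highest. The part of these traces in the day 10 result was not tested.

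**Figure D5:**
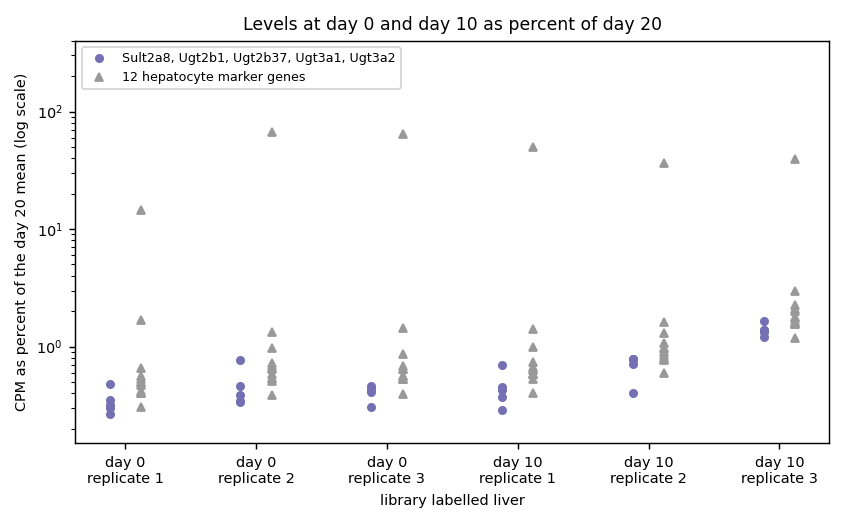
Level in each day 0 and day 10 library as percent of the day 20 mean, on a log axis, for 5 members that were under 0.5 CPM in intestine (circles) and 12 hepatocyte markers (triangles). Most points lie between 0.3% and 2%, day 10 replicate 3 is the highest for both sets, and the triangles above 10% are Cps1, which intestine also expresses.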

How the data were processed

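RNA-seq of 8 intestinal and 9 liver-labelled mouse libraries was analysed from the gene tables the authors deposited. STAR, Partek and the build mm10 are named in the submitters' processing notes, without versions. The deposited intestinal values are expected counts per gene symbol (36.7% not whole; rounded here) and the deposited liver-labelled values are read counts per Entrez identifier. Of 24594 identifiers 24570 matched a symbol; the other 24 took 3.93% to 22.1% of a library's counts. The sources used here do not state whether counting used strand, so reads of overlapping antisense genes cannot be told apart.

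Each table was fitted separately with edgeR 4.0.16 in R 4.3.3: filterByExpr (minimum count 10, total 15), TMM, quasi-likelihood F-test, group as the only factor, all groups in the fit, Benjamini-Hochberg adjustment over all genes of the table and calls at 0.05. The test was also run on simulated counts with 200 genes changed in the first comparison of each table and spreads taken from these libraries. Far more genes were called in the real data, so the simulation gives no error rate for them. Exon lengths and overlaps came from GENCODE vM21, and near copies from blastn of its transcripts (at least 95% identity over 50% of the transcript). Members and gene lists were chosen with earlier results of these data known. Values per library are given for up to 10 called members per comparison with the smallest adjusted p and at least 5 CPM, and levels for up to 3 leaders a family; other genes named were chosen after their values were seen. Alternatives were other scalings, DESeq2 1.42.0, other filters, a replicate block, fewer groups in the fit, a minimum log2 fold change of 1, leaving out each library, and near-identical genes summed. CPM rests on 12742629 to 43580050 counts per library. No 2 libraries held identical values. 1 regulator is not reported here.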

Additional observations from a re-analysis of the deposited data

Results flagged for a closer look

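For 21 of 42 members the effect of hepatectomy differed between crypts and IEC by a direct test of the difference (edgeR interaction contrast, adjusted p under 0.05, beside 19.2% of all genes). Differences are given as log2 fold change in crypts minus that in IEC, with 2 libraries a group.

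The response was smaller in crypts for the UGT2 genes Ugt2b5 (-1.66), Ugt2b36 (-0.69), Ugt2a3 (-0.56) and Ugt2b34 (-0.55). The same held for the UGT1 genes Ugt1a9 (-1.15), Ugt1a7c (-0.47), Ugt1a6a (-0.46) and Ugt1a1 (-0.18). The Ugt1a1 call was lost in 12 of 14 alternatives, including scaling by size factors, DESeq2, the replicate block and each fit without 1 library, with adjusted p up to 0.21, and the Ugt2b36 call in 3, those without sham IEC replicate 2, sham crypts replicate 2 or hepatectomy IEC replicate 1. Ugt1a8 (-5.63) and Ugt1a6b (-3.66) had the widest differences but at most 68 and 60 counts in a library, and the summed Ugt1a locus differed by -0.32 ± 0.05. Among GSTs the response was smaller in crypts for Gsta3 (-1.51), Gstk1 (-0.93), Gstm4 (-0.69), Gstt1 (-0.54), Gstt3 (-0.31) and Gstt2 (-0.27), and among SULTs for Sult6b2 (-0.62). The Gstt2 call was lost in 10 of 14 alternatives, including scaling by size factors, DESeq2 and each fit without 1 library other than hepatectomy IEC replicate 2, with adjusted p up to 0.22. The Gstt3 call was lost without sham IEC replicate 2 or sham crypts replicate 1, with adjusted p up to 0.09.

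A larger response in crypts was found for Gsta1 (0.88), Gstm3 (0.42) and Sult1b1 (0.26). The Sult1b1 call was lost in 6 of 14 alternatives, under total-count scaling and without either sham IEC library, sham crypts replicate 1, hepatectomy IEC replicate 1 or hepatectomy crypts replicate 2, with adjusted p up to 0.23. Gstm5 differed by 0.44, being called lower in IEC and not called in crypts, and this call was lost under total-count scaling (adjusted p = 0.057).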

How the results depend on the processing

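Requiring a log2 fold change of at least 1 left 9 members for hepatectomy against sham in crypts, 15 in IEC, 5 for the difference of effects, 20 and 23 for crypts against IEC after sham and after hepatectomy, and 9 for day 10 against day 0. The tested members were 42 and the tested genes 18207 in intestine. Among all genes 1596 passed in crypts, 1431 in IEC, 711 for the difference, and 1646 and 2762 after sham and after hepatectomy. For day 10 the 9 were of 50 members, beside 3479 of 16694 genes, a share no higher than that of all genes. The day 10 count was also 9 of 50 under total-count scaling, beside 3952 of 16694 genes. It was 10 of 46 with only the compared groups in the fit, beside 5525 of 15369 genes. The cause was not tested. Leaving out 1 library gave 29 to 33 calls in crypts, 34 to 36 in IEC, 16 to 21 for the difference, 31 to 34 and 34 to 35 for crypts against IEC after sham and after hepatectomy, 10 to 23 for day 10 against day 0, 47 to 49 for day 20 against day 0 and 48 to 49 against day 10. Where this left 1 intestinal library in a group, it was assumed to vary like the other groups. Total-count scaling reversed Gstm2 (-0.007), Gstm4 (-0.048), Gstp2 (-0.099) and Gstt2 (-0.014) in hepatectomy against sham crypts, Gstp1 (0.125) and Ugt1a6a (0.063) in crypts against IEC after sham, and Sult1c2 (-0.012) in day 20 against day 10. It moved the median log2 fold change of all genes to -1.07 and -1.17 for day 20 against day 0 and day 10. With a replicate block the counts were 32 in crypts, 36 in IEC, 20 for the difference, 33 and 35 for crypts against IEC after sham and after hepatectomy, 21 for day 10 against day 0, and 48 for day 20 against day 0 and against day 10. Same-numbered libraries did not deviate together (correlations from -0.03 to 0.04). With 2 or 3 libraries a group, this cannot show whether the numbers pair samples. Of called members with at least 5 CPM, 18 of 27 in crypts, 28 of 32 in IEC and 13 of 19 for the difference kept their call in all alternatives of scaling, model, filter, block, groups in the fit and libraries left out (15, 15 and 14 alternatives), which do not include the minimum fold change or the summed genes. Depth limits the genes under the filter, which the main fit did not test. Without a filter, 54 of 62 members were called for day 20 against day 10, beside 14372 of 23878 genes. Of these members 41 were higher and 13 lower.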
